A study of Rattus norvegicus with 2 samples.

Results

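Complement is a cascade of proteins that tag and lyse targets and mark synapses and debris for removal by microglia. C1q, a hexamer of triplets of the A, B and C chains, starts the classical pathway, the proteases C2 and factor B supply the catalytic subunits that cleave C3, and regulators such as the C1 inhibitor and CD59 restrain it. In the brain, C1q comes mostly from microglia, while C3 is made by several cell types, among them astrocytes, microglia and cells of the meninges and vessels. The genes described here were 8 complement components and regulators: C1qa, C1qb, C1qc, C2, C3, Cfb, Serping1 and Cd59. They were chosen as every rat probe on the arrays whose gene name is one of these symbols, which gave 9 probes, 2 of them for C2, each with 1 spot per array, out of 15560 genes measured on both arrays. All 8 passed the filter on low values, since every spot was well above background on both arrays.

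The samples were nucleus tractus solitarius (NTS), the brainstem nucleus where afferents from baroreceptors and other visceral sensors end, from Wistar Kyoto rats, an inbred laboratory strain. The female pool held RNA of 5 females and the male pool RNA of 5 males, all 9 weeks old, with 100 ng from each rat. With 1 single-colour array for each pool, no difference between the sexes has a replicate check, no test could be made, and differences between rats are not measured. Differences are female minus male on the log2 scale, each array being set relative to its own 75th percentile of the log2 processed signal, and a level is a spot's log2 distance from that percentile.

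The 75th percentile was a processed signal of 3380 for the female pool, against 3441 for the male pool. Of the rat spots 87.9% were well above background for the female pool, against 85.5% for the male pool, and none was saturated. Markers of the dissected nucleus were present in both pools: 5 of 6 listed genes had a probe and all 5 were well above background on both arrays, with a median difference of 0.026. Directions below hold relative to the 75th percentile. If the arrays are scaled on the spike-in probes, every gene shifts 0.67 to the female side, and all 8 complement genes then lie on the female side, from 0.12 to 0.94. Gaps between genes within these arrays are not touched by that choice.

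The probe sequences are shown for C3, which had the largest difference, for the C1q chains A and C, and for the pair of C2 probes that give the only check by a second probe. They are 60-base oligonucleotides, given 5′ to 3′ as the array files list them. Capitals mark the longest run that any probe of another gene on the array also holds.
C3: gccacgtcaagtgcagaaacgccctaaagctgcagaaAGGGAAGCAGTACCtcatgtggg
C1qa: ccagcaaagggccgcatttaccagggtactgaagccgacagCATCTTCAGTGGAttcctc
C1qc: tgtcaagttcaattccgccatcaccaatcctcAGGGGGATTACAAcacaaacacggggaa
C2 (probe 1): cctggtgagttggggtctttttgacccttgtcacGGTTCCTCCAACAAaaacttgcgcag
C2 (probe 2): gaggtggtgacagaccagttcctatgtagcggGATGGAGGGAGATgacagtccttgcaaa

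Over all 9 probes that run was 12 to 15 bases, so no probe shared more than 15 of its 60 bases in 1 stretch with a probe of another gene. GC content was 36.7% in the Serping1 probe and 38.3% in the Cd59 probe, 45% in those of C1qb and Cfb, and 48.3% to 55% in the others, against a median of 45% over the array. On the rn4 build of the rat genome, which the file headers name, the C1q probes lie on the minus strand of chromosome 5, in the order C1qb (chr5:155647530-155647589), C1qc (chr5:155656638-155656697) and C1qa (chr5:155662578-155662637). The 2 C2 probes, at chr20:4071504-4071563 for probe 1 and chr20:4071119-4071178 for probe 2, are 325 bases apart on the plus strand, and 6179 bases lie between probe 1 and the Cfb probe at chr20:4077743-4077802. The Serping1 probe is at chr3:67968812-67968871 on the minus strand and the Cd59 probe at chr3:89244707-89244766 on the plus strand. The array files place the C3 probe on an unassigned chromosome, at chrUn:64513437-64513496 on the minus strand. In the RefSeq gene order (GRCr8) C1qb, C1qc and C1qa follow each other with no other coding gene between them, and so do C2 and Cfb. RefSeq now names the accession of the Cd59 probe Cd59b.

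Relative to the 75th percentile, C3 stood furthest apart and was lower in the female pool, Cfb was higher there, and the other 6 genes lay within 0.22 of 0. With spike-in scaling every one of the 8 is on the female side. None of the 8 genes differed by 2-fold or more, against 0.533% of all genes (0.109% on the female side, 0.424% on the male side). None reached 1.5-fold either, against 2.47% of all genes (0.893% on the female side, 1.57% on the male side). The female pool was higher in 2 of 8 genes, where 45.7% of all genes were, and the male pool in 6, where 54.3% of all genes were. The median difference of the 8 was -0.10, against -0.014 over all 15560 genes. These counts and medians are descriptions of 2 arrays.

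**Figure D1:**
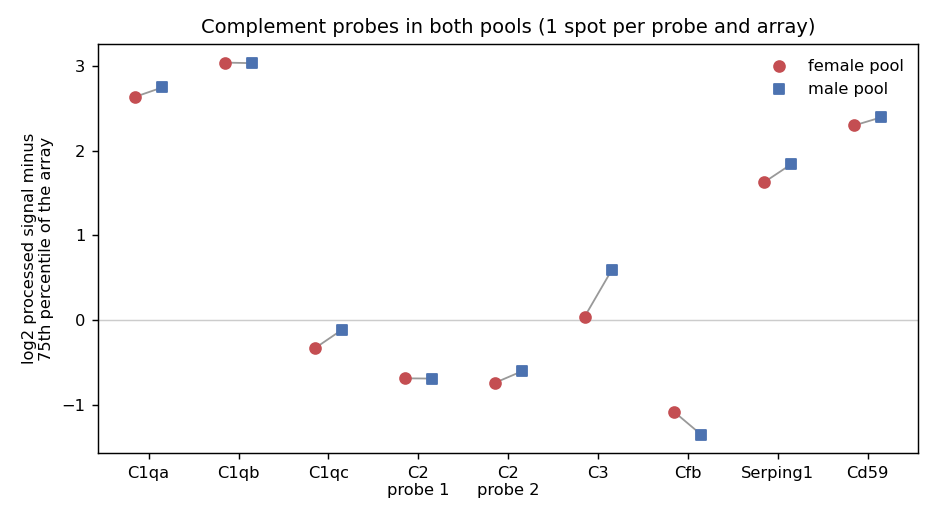
Level of each complement probe, as log2 processed signal minus the array's 75th percentile, in the female pool (circles, left) and the male pool (squares, right), with 1 spot per probe and array. The steepest line is that of C3, at 0.037 for females against 0.58 for males, and Cfb runs the other way; with spike-in scaling all female values would sit 0.67 higher relative to the male ones.

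No member had repeated spots, so technical error was taken from other probes and from the image analysis software (Feature Extraction). Probes of like brightness that are spotted 8 times or more gave an SD of the difference of 0.065 to 0.077. Different probes of 1 gene at like brightness spread more, with an SD of 0.099 to 0.15. The error model of that software gives an SD of 0.20 for each difference. This value follows a fixed multiplicative share of 10% in the software and was not measured on these arrays. The members beyond 2 SD numbered 4 by repeated spots (C3, Cfb, Serping1 and C1qc), 2 by probes of the same gene (C3 and C1qc) and 1 by the error model (C3). The share of all genes beyond these limits was not counted, so the counts show no excess among the members. Of all genes, 11.0% were at least as far on the male side as Serping1, 10.6% as C1qc and 1.93% as C3. On the female side 5.55% were at least as far as Cfb. None of these measures holds the variation between rats or between labelling reactions.

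**Figure D2:**
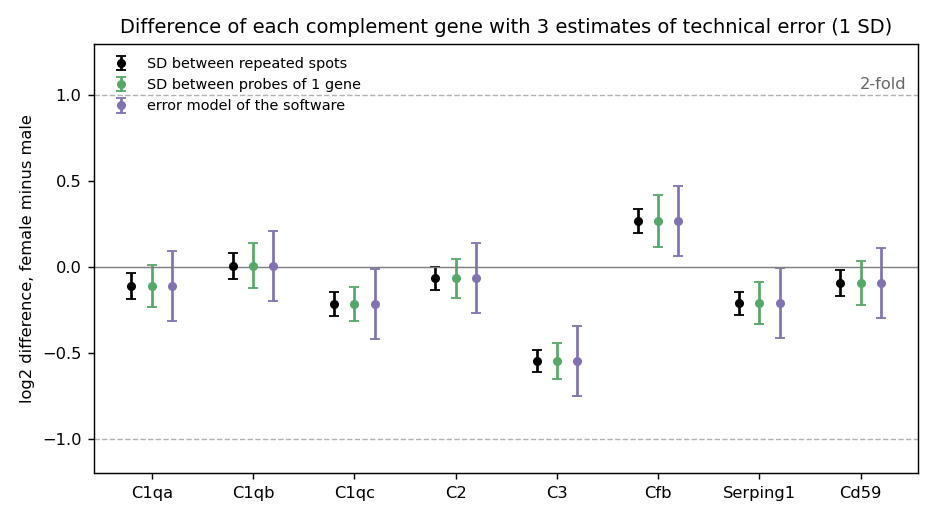
Log2 difference, female minus male, of each complement gene relative to the 75th percentile, with 1 SD from 3 estimates of technical error (repeated spots of like brightness, different probes of 1 gene, and the error model of the image analysis software). The error model follows a fixed share of 10% and was not measured on these arrays. Dashed lines mark 2-fold, which none of the 8 genes reaches, and C3 at -0.55 is the only gene beyond 2 SD by all 3 estimates; spike-in scaling would move all points up by 0.67.

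C3 encodes the protein on which all activation routes converge, and its fragments are the ligands of complement receptors on microglia. Its spot gave a processed signal of 3468 for the female pool, against 5160 for the male pool. The difference was -0.55, 1.46-fold lower in the female pool, which is 8.23 times the SD of repeated spots, 5.35 times that of different probes of a gene and 2.68 times that of the error model. The unprocessed spot means were 3423 for the female pool, against 5153 for the male pool, over local backgrounds of 32 and 31.5, so either signal was far above its local background. The 362 neighbouring spots within 10 rows and 10 columns had a median difference of 0.00050. Of 1506 other genes within 0.5 log2 units of its brightness, 3 were as far on the male side, and 301 of all 15560 genes were. Over 11 alternatives the difference of C3 lay between -0.56 and -0.51, and with spike-in scaling it was 0.12. It rests on 1 spot of 1 probe per array.

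Cfb encodes factor B, the protease component of the alternative pathway, which binds to C3 fragments and amplifies their deposition. The Cfb spot gave 1590 for the female pool, against 1344 for the male pool. The female pool was higher by 0.27, 1.20-fold, against an SD of 0.072 from repeated spots and 0.15 from probes of the same gene. Among 1836 other genes of like brightness 35 were as far or further on the female side, or 1.91%. Its 377 neighbouring spots had a median difference of 0.0033. The difference of Cfb exceeded that of C3 by 0.82, with an SD of 0.098 from repeated spots, and this gap lay between 0.81 and 0.82 under 12 alternatives, spike-in scaling included. That SD leaves out the spread between probes of 1 gene, whose SD was 0.15 at the brightness of Cfb and 0.10 at that of C3.

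The genes of the 3 C1q chains are adjacent and their products assemble in 1 molecule. C1qa gave a processed signal of 20991 for the female pool, against 23061 for the male pool, a difference of -0.11. C1qb gave 27775 for the female pool, against 28146 for the male pool, which after scaling is a difference of 0.0066. C1qc gave 2682 for the female pool, against 3173 for the male pool, a difference of -0.22. C1qb was within 1 SD of 0 by each measure of error, and C1qa was within 2 SD of 0 by all of them. C1qc was beyond 2 SD by repeated spots (3.13 SD) and by probes of the same gene (2.20 SD). By the error model C1qc was within 2 SD (1.06 SD). Among 1668 other genes of like brightness 93 were as far on the male side as C1qc, or 5.58%. Being beyond 2 SD of technical error therefore does not set C1qc apart from genes of like brightness. The gap between C1qc and C1qb was -0.22 with an SD of 0.10 from repeated spots, and it lay between -0.22 and -0.18 under the alternatives that give both genes a value. That SD leaves out the spread between probes of 1 gene, whose SD was 0.099 at the brightness of C1qc and 0.13 at that of C1qb. The gap between C1qc and C1qa, -0.11, was about as large as its SD of 0.10 and lay between -0.13 and 0.022 under 12 alternatives.

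C2, the protease of the classical and lectin pathway C3 convertase, was the one member with a pair of probes. Probe 1 gave 2097 for the female pool, against 2130 for the male pool, a difference of 0.0031. Probe 2 gave 2019 for the female pool, against 2258 for the male pool, a difference of -0.14, or 2.02 SD of repeated spots. Their median was -0.066, within 1 SD of 0 by each measure of error. Probe 2 and the C1qb probe were spotted in 4 row bands, out of 20, where dim spots at least 2-fold brighter for males made up more than 3 times the median share. Without those bands C1qb has no value and C2 rests on probe 1. Although the C2 and Cfb genes are neighbours, the difference of Cfb exceeded that of C2 by 0.33, with an SD of 0.099 from repeated spots, and by 0.27 to 0.40 under the alternatives. The larger SD between probes of 1 gene, 0.15 at the brightness of Cfb and 0.12 at that of C2, is not part of that SD. The gap therefore does not show that the genes differ beyond probe error.

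Both regulators were lower in the female pool by small amounts relative to the 75th percentile, and higher there with spike-in scaling. Serping1 encodes the C1 inhibitor, a serpin that inactivates the C1 proteases and also those of the contact system. Its spot gave 10441 for the female pool, against 12311 for the male pool, a difference of -0.21, against an SD of 0.065 from repeated spots and 0.12 from probes of the same gene. Of 966 other genes of like brightness 34 were as far on the male side, or 3.52%. Cd59, the membrane-anchored inhibitor of the membrane attack complex, gave 16607 for the female pool, against 18063 for the male pool. Its difference of -0.095 was within 2 SD of 0 by each measure. The 2 regulators did not separate from each other beyond 2 SD, with a gap of 0.12 and an SD of 0.10.

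**Figure D3:**
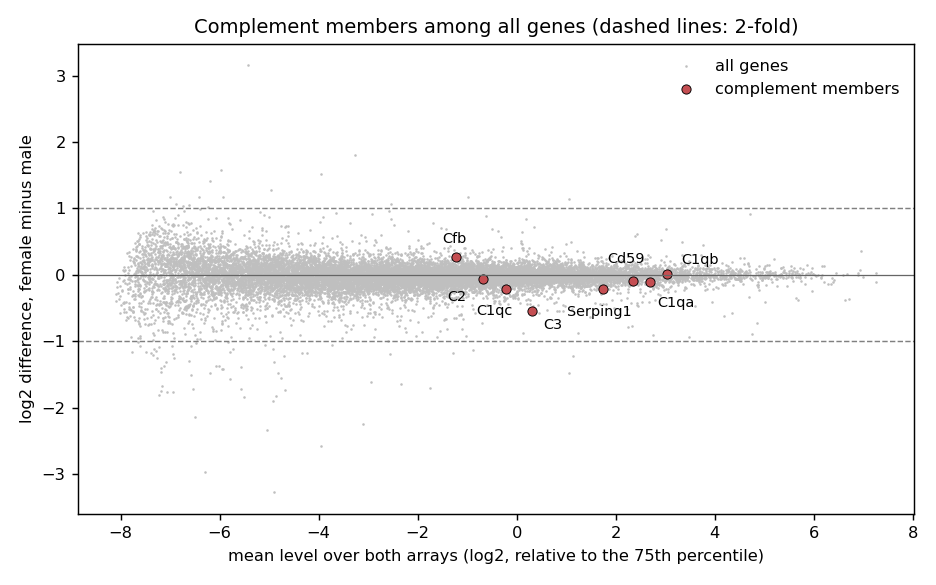
Log2 difference, female minus male, against mean level over both arrays, both relative to the 75th percentile, for 15560 genes (grey) and the 8 complement members (red). The members lie in the bright part of the range, where the spread is narrow, and C3 is at the lower edge of the cloud; spike-in scaling moves all points up by 0.67.

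The rest of the pathway was read from a list of 60 symbols, older names included. Of these, 43 had a probe, 33 genes were well above background on both arrays, 4 on the female array only and 6 on neither. The 33 genes divided into 16 on the female side, where 45.7% of all genes were, and 17 on the male side. Their median difference was -0.010, close to the -0.014 of all genes. None reached 2-fold, against 0.533% of all genes, and 1 reached 1.5-fold, against 2.47% of all genes. With spike-in scaling the median of these genes was 0.66, as was that of all genes.

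Of 8 initiators of the classical and lectin pathways, 6 were on the male side of 0 relative to the 75th percentile, where 54.3% of all genes were. Their median was -0.095, against -0.014 over all genes, and with so few genes the count is a description only. C4a, whose product is cleaved by C1s on the way to the C3 convertase, differed by -0.24 against an SD of 0.062 from repeated spots of like brightness. The SDs below for single genes of the wider list are of this kind unless stated otherwise. Between probes of 1 gene the SD was larger for the members, at 0.099 to 0.15. The ficolin genes Fcnb and Fcna, which encode lectins that recognise sugars, differed by -0.21 and -0.19 with SDs of 0.15 and 0.12. Of the alternative pathway, Cfd, the protease that activates factor B, differed by -0.19 with an SD of 0.077, and Cfp, properdin, by -0.010. Cfb and Cfd thus lay on opposite sides of 0 on this scale.

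Terminal pathway genes, whose products build the membrane attack complex, were mostly dim. The 3 largest differences were within their SDs. C9 differed by 0.21, C8b by 0.20 and C6 by 0.14, with SDs of 0.29, 0.24 and 0.25. Among receptors, the C3a receptor gene C3ar1 differed by -0.32 with an SD of 0.27. Cd93, an endothelial and myeloid membrane protein once described as a C1q receptor, was higher in the female pool by 0.28 with an SD of 0.071, and the C5a receptor gene C5ar1 by 0.17 with an SD of 0.17.

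Of 7 soluble regulators, 4 were on the female side, where 45.7% of all genes were, and 3 on the male side. Cfi, the protease that cleaves C3b with the help of cofactors, differed by 0.24, C4bpb by 0.14, and the dim Cpn1, a carboxypeptidase subunit, by -0.23 with an SD of 0.30. The membrane regulators had the one value past 1.5-fold, 0.78 for Csmd3. Its 2 probes disagreed, at 0.22 for the brighter and 1.33 for the dim one. Cd55, which speeds the decay of convertases, differed by 0.15 and Cr1l, a rodent C3 regulator also known as Crry, by -0.10. There were 4 genes well above background on the female array only. Of these, Mbl1 lay 0.16 (1.12-fold) and C5ar2 0.18 (1.13-fold) above the floor of the male array. Both distances are smaller than the SD of 0.30 for the dim Cpn1, so neither sets a lower limit on a difference. No bound could be given for C4bpa.

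**Figure D4:**
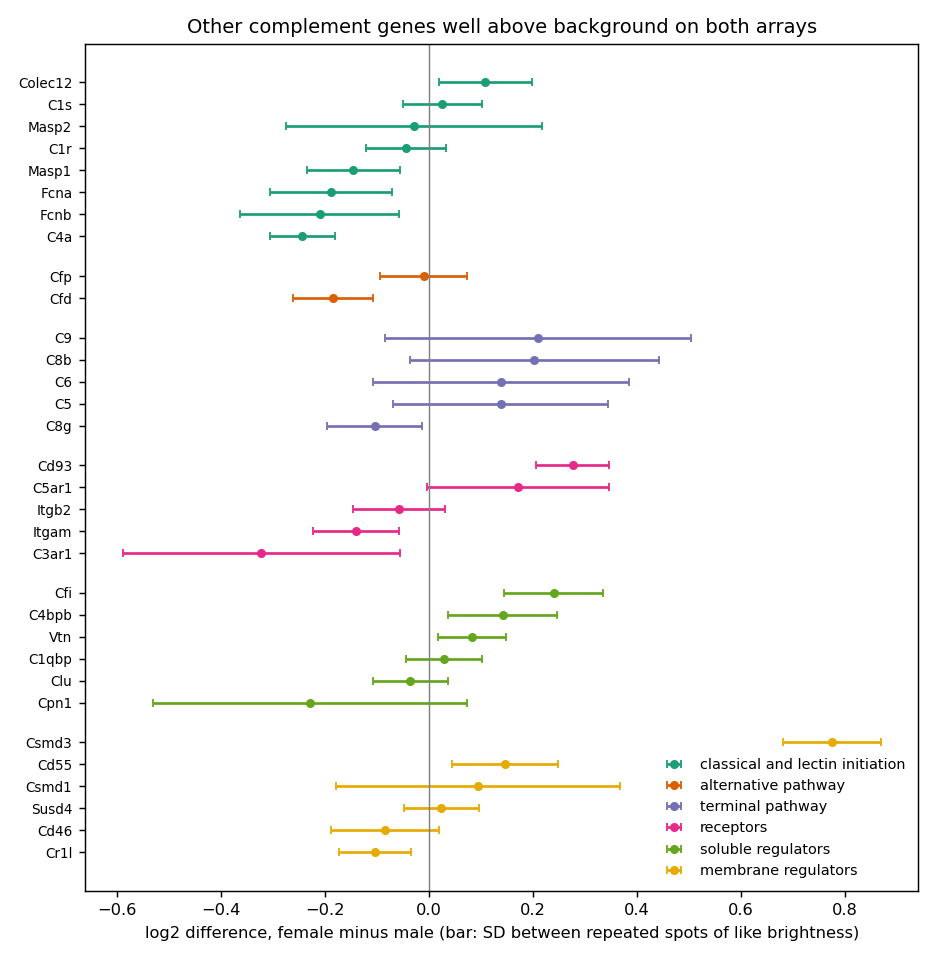
Log2 difference, female minus male and relative to the 75th percentile, of 32 of the 33 other complement genes well above background on both arrays, in 6 role groups, with bars of 1 SD between repeated spots of like brightness. The values spread on both sides of 0, and Csmd3 at 0.78 averages 2 probes that disagree; spike-in scaling moves all points by 0.67 to the right.

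Some of these other genes had 10 spots per array and so carry their own error, for which they were picked out after their values were seen. Clu, clusterin, an inhibitor of the terminal pathway abundant in astrocytes, differed by -0.036 ± 0.049 (SD over 10 spots). Cfi differed by 0.24 ± 0.052, with its lowest spot at 0.20. C1r, the protease of the C1 complex, differed by -0.044 ± 0.059, the integrin gene Itgb2 by -0.058 ± 0.069 and C5 by 0.14 ± 0.17. Among these 5 only Cfi had all 10 spots on one side of 0. The spots of a probe share 1 RNA pool, so this SD is technical.

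Markers of cell types that the dissected tissue could hold were read beside the complement genes. Their lists were chosen with earlier results of these data known, so their counts only describe the 2 arrays. Of all genes, 54.3% were on the male side and 45.7% on the female side. The microglia and macrophage list, without C1q, was on the male side in 10 of 14 genes, with a median of -0.071, and its summed level was 25.5 times the 75th percentile for females, against 26.2 times for males. Its largest differences were -0.63 for Cd68 and -0.28 for Csf1r, while Mrc1, a marker of perivascular macrophages, was well above background on the female array only. Astrocyte markers were on that side in 7 of 9 genes, with a median of -0.095, summed levels of 80.4 for females against 84.8 for males, and -0.32 for Gfap. Oligodendrocyte markers had a median of 0.27, with 5 of 7 on the female side, and neuronal markers a median of -0.031, with 2 of 6 on that side.

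Markers of meninges, choroid plexus, red cells and neutrophils had medians further on the male side than those of microglia and astrocytes. These lists too were chosen with earlier results known, so their counts are no independent evidence. All 10 genes of meninges and fibroblasts were on the male side, where 54.3% of all genes were. Their median was -0.37, with summed levels of 12.5 for the female pool, against 19.1 for the male pool. Choroid plexus markers were on that side in 8 of 8 genes (median -0.24, summed levels 13.9 for the female pool, against 16.2 for the male pool). The same held for 4 of 4 red cell genes (median -0.66, 30.3 for females against 40.5 for males) and for 6 of 6 neutrophil genes (median -0.70, 0.318 for females against 0.496 for males). Endothelial genes were on the other side in 7 of 7 cases (median 0.19, 5.16 for females against 4.40 for males). With spike-in scaling, which adds 0.67 to each median, the neutrophil median alone of these lists stays below 0. The part of these cell types in the differences of C3, Serping1 and the other genes was not tested, and in pooled bulk tissue fewer cells of a type and less RNA per cell cannot be told apart.

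**Figure D5:**
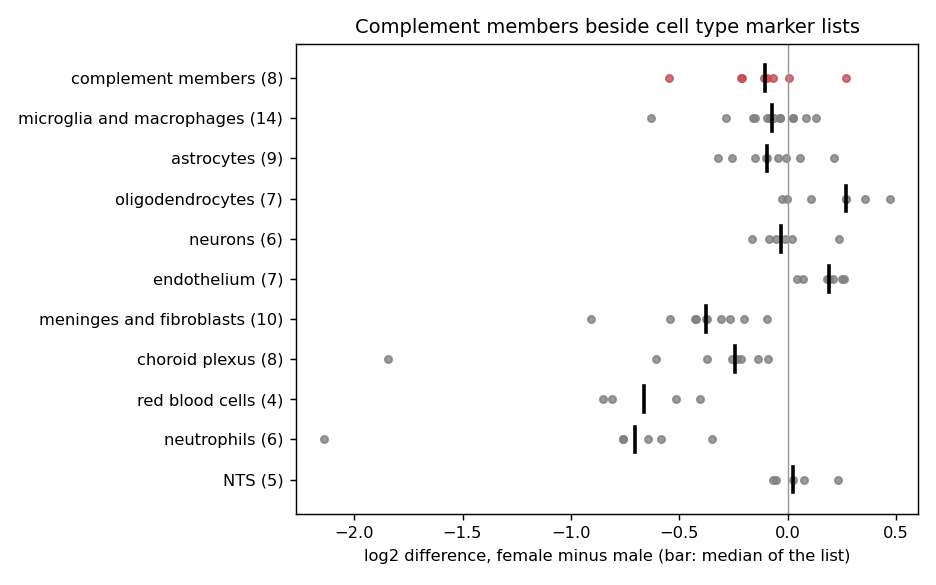
Log2 difference, female minus male and relative to the 75th percentile, of each complement member (red) and each marker gene (grey), by list, with the number of genes in brackets and a bar at the median. The lists were chosen with earlier results of these data known. The complement median of -0.10 lies near those of microglia (-0.071) and astrocytes (-0.095), and C3 at -0.55 lies within the ranges of the microglia, meninges, choroid plexus, red cell and neutrophil lists; spike-in scaling moves all points by 0.67 to the right.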

How the data were processed

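The deposited intensity values come from 1-colour Agilent arrays (Cy3); per the file headers the software was Feature Extraction 10.7.3.1, while 9.1 is the version in the submitters' processing notes. Per the file headers, local trends and background were removed from the processed signal array by array, with no scaling between arrays, and both arrays lay on the same slide and were scanned together. A deposited value table holds the processed intensity times 1 factor per array, with column medians of 27.3 (female) and 28.0 (male), so it is linear and not centred. It lists all 9 member probes.

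Levels are log2 processed signals minus each array's 75th percentile over 42877 rat spots. Control spots and 430 spots with an outlier flag were left out, spots of a probe were averaged, and a gene is the median of its probes well above background on both arrays. This left 24530 probes and 15560 genes. Symbols came from RefSeq (GRCr8) through the probe's accession for 18750 probes and another accession for 1035; 2879 kept the files' symbol and 7703 had none. With 1 array per sex no test was made; 2-fold was the threshold. A gene on 1 array only was bounded by the other array's floor, without allowance for spot error.

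All members are named. Of each role group the 3 largest differences are named, and of each marker list up to 2. The members and lists were chosen with earlier results of these data known. The steps were tested on simulated arrays with spot noise alone, where 199 of 200 genes with planted changes beyond 2-fold were recovered. Of 15360 unchanged genes, 4 passed 2-fold. Differences as small as those of the members were not simulated. Tools were Python 3.11.15, pandas 2.3.3, statsmodels 0.14.6, R 4.3.3 and limma 3.58.1. The alternatives are named in the closing section. Some genes of the wider list are counted but not reported singly here.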

Additional observations from a re-analysis of the deposited data

How the results depend on the processing

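The members' differences, their median and counts, and the median and 2-fold count of the other complement genes were recomputed with median, quantile and spike-in scaling, removal of the trend with brightness (loess, span 0.3), normexp background correction (offset 50), the deposited value table, 2 looser background filters, outlier spots left in, each gene's brightest probe, a 1.5-fold threshold, and without 4 bands of array rows (20.4% of rat spots). Subtracting the median of neighbouring spots was chosen after seeing the data. Spike-in scaling moved most: the median difference of the members became 0.57, 8 of 8 members were higher in the female pool, the median of the other complement genes became 0.66, and 1 of those genes, Csmd3, passed 2-fold. Under the other alternatives the member median lay between -0.12 and -0.068 and the female pool was higher in 2 genes, which were C1qb and Cfb of 8 except without the bands, where they were C2 and Cfb of 7. The median of the other complement genes changed sign but stayed between -0.029 and 0.029. Of those genes, 2 passed 2-fold without a background filter (Cr2 and Mbl2, well above background on neither array), 1 without the bands and 1 at 1.5-fold (Csmd3 both times). Among single members, C1qc gave -0.14 with normexp, and C2 gave -0.14 with the brightest probe and 0.0031 without the bands. Counts of all genes past 2-fold moved too: 17 in the female and 66 in the male direction became 581 and 17 with spike-ins, 212 and 158 with probes above background on 1 array, 436 and 275 without a filter, 5 and 18 with normexp, and 12 and 40 without the bands. At 1.5-fold they were 139 and 245. No paired analysis was possible because each sex had 1 array. Precision is limited by the number of arrays.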

Other observations

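Genes that share the C1q domain but belong to other systems were read from a list chosen after the complement values were seen. The list held 18 genes, of which 17 were well above background on both arrays. The female pool was higher in 11 of them, where 45.7% of all genes were, and the male pool in 6. Their median difference was 0.080 relative to the 75th percentile, against -0.014 over all genes. All 4 cerebellin genes, which encode secreted organisers of synapses, were higher in the female pool. The differences were 0.24 for Cbln3, 0.23 for Cbln4, 0.14 for Cbln1 and 0.12 for Cbln2 over 10 spots. The SDs of repeated spots of like brightness were 0.13, 0.074, 0.066 and 0.076, so Cbln3 was within 2 SD of 0. C1qtnf9, a secreted relative of adiponectin, differed by 0.33 and C1ql2 by 0.19, with SDs of 0.089 and 0.090. C1qtnf1 differed by -0.28 with an SD of 0.15. None of the 17 reached 2-fold, against 0.533% of all genes. With spike-in scaling each of these values is higher by 0.67. Pentraxins, some of which bind C1q, had a median of 0.064 over 5 genes. Among them Ptx3 was higher in the female pool by 0.41 with an SD of 0.18, and Apcs, which was dim, differed by -0.51 with an SD of 0.32.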
